A study of Mus musculus with 12 samples.

Results

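The genotype difference of the IL-10 effect was measured in mouse bone marrow-derived macrophages as the change that added IL-10 brought to LPS-treated p50-/-IL10-/- cells minus the change it brought to LPS-treated IL10-/- cells. It was computed for all 12393 genes to which 1 gene symbol could be given, each read from its brightest probe set, and it rests on 8 of the 12 arrays of the series. The 4 groups were p50-/-IL10-/- macrophages given LPS and IL-10, p50-/-IL10-/- macrophages given LPS, IL10-/- macrophages given LPS and IL-10, and IL10-/- macrophages given LPS, with 2 arrays each. Unstimulated p50-/-IL10-/- and IL10-/- macrophages, also with 2 arrays each, gave baseline levels and a share of the estimate of the spread. All mice were of the 129-SvEv-Tac strain and all cells lacked IL10, so neither genotype had a working IL10 gene and the IL-10 studied was the added protein, at 0.3 ng/ml. LPS was given at 1 ng/ml, and RNA was collected 4 hours after stimulation from cells grown for 5 days in medium conditioned by L cells. The labels call the arrays biological replicates but do not say whether they came from separate mice, so p-values measure the spread between these arrays, which may be partly technical.

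IL-10 acts on macrophages through a receptor that activates the transcription factor STAT3, and it is known for restraining the output of inflammatory cytokines after LPS. The p50 protein is an NF-kB subunit cut from the precursor p105. It has no activation domain of its own, and its homodimers can occupy kB sites without activating them. The p105 precursor also binds and stabilises the kinase Tpl2, through which LPS reaches the ERK pathway, so loss of the gene removes both products. A positive difference below means that the level under IL-10, relative to LPS, was higher in p50-/-IL10-/- cells than in IL10-/- cells.

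The arrays were alike in scale, with medians from 6.92 to 6.96 on the log2 scale and correlations between replicates from 0.992 to 0.997. Macrophage identity genes averaged between 11.3 and 11.7 on every array. The Il10 probe set read 7.98 and 8.04 in p50-/-IL10-/- cells with LPS and IL-10, against 9.11 and 8.86 with LPS, and 6.83 and 6.96 in IL10-/- cells with LPS and IL-10, against 7.71 and 7.56 with LPS. The sources do not place this probe set inside or outside the deletion, so it checks neither genotype, and transcripts of the gene that encodes p50 were not analysed here. One feature touched many results below. Interferon-stimulated genes read higher on array 1 than on array 2 for 34 of 35 such genes in each of the 3 IL10-/- groups, by a median of 1.23 with LPS and IL-10, 0.61 with LPS and 1.17 in unstimulated cells. Fewer cells of a type and less RNA per cell cannot be told apart in such bulk samples.

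The difference passed the test for 17 genes, 12 of them higher without p50 (0.0968% of all genes tested) and 5 lower (0.0403%), by limma with Benjamini-Hochberg adjustment over all genes at an adjusted p under 0.05. For comparison, IL-10 itself was called to raise 458 genes (3.70%) and lower 356 (2.87%) in p50-/-IL10-/- cells, and to raise 415 (3.35%) and lower 350 (2.82%) in IL10-/- cells. Sorted by the sign of the IL-10 effect in each genotype, 6 of the 17 had a negative effect in both, 6 had a positive effect in both, 4 had a positive effect in p50-/-IL10-/- cells and a negative one in IL10-/- cells, and 1, Nfatc1, had the reverse. All 6 that were negative in both were less negative without p50. Across all genes the effects in the 2 genotypes, which share no array, correlated at r = 0.604, given as a description since genes are not independent.

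**Figure D1:**
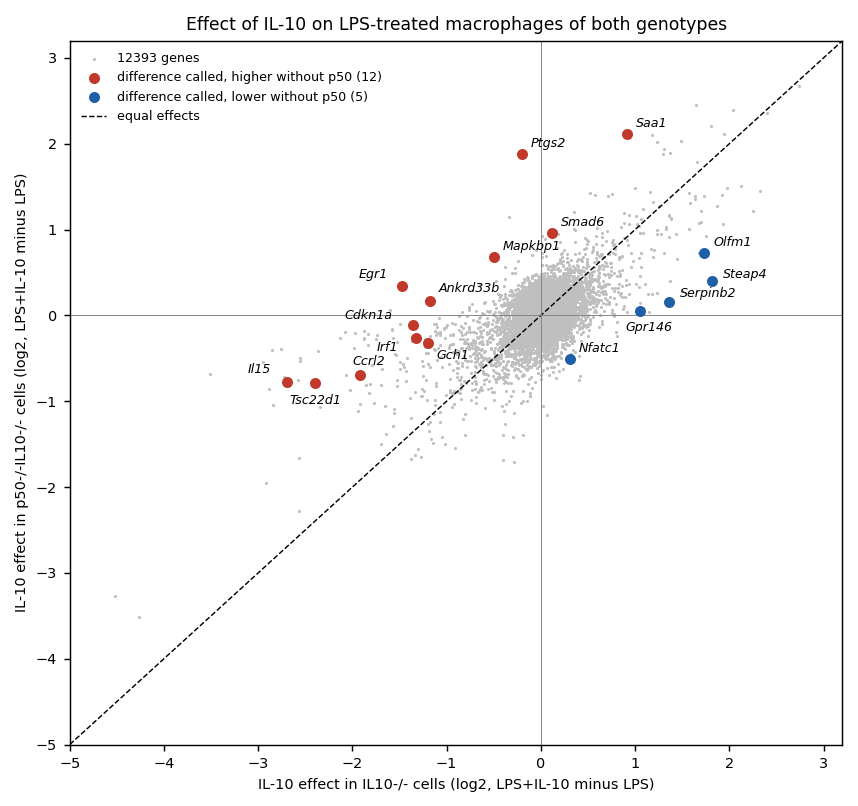
IL-10 effect in p50-/-IL10-/- cells (vertical axis, log2, LPS+IL-10 minus LPS) against that in IL10-/- cells (horizontal axis, log2) for 12393 genes, each a grey point. The 12 genes called higher without p50 (red) lie above the dashed line of equal effects and the 5 called lower (blue) lie below it. Il15, Tsc22d1 and Ccrl2 lie far to the left, where IL-10 lowered expression strongly in IL10-/- cells.

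Il15, which encodes the cytokine that sustains natural killer cells and memory CD8 T cells, had the smallest p of all. Its log2 level was 11.19 and 11.24 in p50-/-IL10-/- cells with LPS and IL-10, against 12.00 and 11.97 with LPS. In IL10-/- cells it was 8.25 and 8.46 with LPS and IL-10, against 11.19 and 10.90 with LPS. IL-10 thus lowered Il15 in both genotypes and no arrays overlapped, but the fall was 1.71-fold without p50 and 6.46-fold with it. With IL-10, p50-/-IL10-/- cells stayed far above their unstimulated mean of 8.15, whereas IL10-/- cells came to just above theirs, 8.14. The difference was 1.92 ± 0.17 (log2, SE, 95% interval 1.54 to 2.30, adjusted p = 0.00295).

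Other members of the IL-15 system did not pass the test of the difference. Il15ra, the chain that presents IL-15 to other cells, had a difference of 0.22 ± 0.30, with IL-10 effects of -0.75 without p50 and -0.97 in IL10-/- cells. Jak3, a kinase used by receptors that share the common gamma chain, had an effect of 0.63 in p50-/-IL10-/- cells and 0.68 in IL10-/- cells, both called, and a difference of -0.05 ± 0.19. Il2rb, the receptor's beta chain, had an effect of 0.11 in p50-/-IL10-/- cells and -0.07 in IL10-/- cells. A dimmer second Il2rb probe set gave a difference of 0.48 ± 0.15 (adjusted p = 0.328 when every probe set was tested). Its effects were 0.37 in p50-/-IL10-/- cells and -0.11 in IL10-/- cells.

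Tsc22d1, which encodes a leucine zipper protein of the TSC22 family, and Ccrl2, which encodes a surface receptor that binds chemerin, were also called lower with IL-10 in both genotypes. Tsc22d1 read 10.79 and 10.77 in p50-/-IL10-/- cells with LPS and IL-10, against 11.59 and 11.53 with LPS, and in IL10-/- cells 8.45 and 8.86 with LPS and IL-10, against 10.98 and 11.13 with LPS. The fall was 1.72-fold in p50-/-IL10-/- cells and 5.27-fold in IL10-/- cells, and the difference was 1.61 (adjusted p = 0.00984). Its probe set can match related transcripts. Of the other 5 probe sets of the gene, 2 gave differences of 1.66 and 1.42 and 3 gave 0.29, 0.24 and 0.00. Ccrl2 read 12.20 and 12.21 in p50-/-IL10-/- cells with LPS and IL-10, against 12.98 and 12.82 with LPS. In IL10-/- cells it read 10.35 and 10.60 with LPS and IL-10, against 12.44 and 12.35 with LPS. Groups did not overlap in either genotype, and the difference was 1.22 (adjusted p = 0.0125).

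Irf1, Cdkn1a and Gch1 were called lower with IL-10 in IL10-/- cells, and their effects in p50-/-IL10-/- cells were negative without passing the test. Irf1 encodes a transcription factor induced by interferons and LPS. It read 12.69 and 12.73 in p50-/-IL10-/- cells with LPS and IL-10, against 12.96 and 13.00 with LPS. In IL10-/- cells it read 11.18 and 11.25 with LPS and IL-10, against 12.55 and 12.53 with LPS. The effect was -0.27 in p50-/-IL10-/- cells (adjusted p = 0.0578) and -1.32 in IL10-/- cells (adjusted p = 8.1e-06), and the difference was 1.06 ± 0.10 (adjusted p = 0.00295).

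Cdkn1a, which encodes the cyclin-dependent kinase inhibitor p21, was nearly level without p50. It read 13.18 and 13.18 in p50-/-IL10-/- cells with LPS and IL-10, against 13.30 and 13.28 with LPS, and 11.71 and 11.65 in IL10-/- cells with LPS and IL-10, against 13.03 and 13.03 with LPS. The difference was 1.24 ± 0.14 (adjusted p = 0.00882), and its second probe set gave 1.76. Gch1 encodes the first enzyme of tetrahydrobiopterin synthesis, which supplies a cofactor of nitric oxide synthase. It averaged 11.53 in p50-/-IL10-/- cells with LPS and IL-10, against 11.84 with LPS, and 10.08 in IL10-/- cells with LPS and IL-10, against 11.28 with LPS. Its difference was 0.88 ± 0.13 (adjusted p = 0.0364), and a second probe set gave 0.54.

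Egr1 and Ankrd33b were called lower with IL-10 in IL10-/- cells and had small positive effects, not called, without p50. Egr1 encodes an immediate early transcription factor that is a known target of ERK signalling. It read 7.36 and 7.26 in p50-/-IL10-/- cells with LPS and IL-10, against 6.89 and 7.03 with LPS, and 7.08 and 6.75 in IL10-/- cells with LPS and IL-10, against 8.66 and 8.12 with LPS. The difference of 1.82 ± 0.29 (adjusted p = 0.0484) lay just inside the threshold. Ankrd33b was near the dim end of the arrays in p50-/-IL10-/- cells, at 5.52 and 5.53 with LPS and IL-10, against 5.24 and 5.49 with LPS. In IL10-/- cells it read 8.03 and 8.05 with LPS and IL-10, against 9.12 and 9.32 with LPS. The lower quartile of all probe sets was 5.49 to 5.60 over the arrays, and the p50-/-IL10-/- cells lay at or near it. The difference was 1.34 ± 0.20 (adjusted p = 0.0364).

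IL-10 was called to raise Saa1, Ptgs2 and Smad6 in p50-/-IL10-/- cells. Of these, only Saa1 was also called in IL10-/- cells, where the Ptgs2 effect was negative. Saa1 encodes serum amyloid A, an acute-phase protein. It read 7.17 and 7.23 in p50-/-IL10-/- cells with LPS and IL-10, against 5.13 and 5.04 with LPS. In IL10-/- cells it read 6.22 and 6.03 with LPS and IL-10, against 5.31 and 5.12 with LPS. The levels with LPS lay below the lower quartile of all probe sets in both genotypes, so the size of each rise is uncertain. The difference was 1.20 ± 0.14 (adjusted p = 0.00882). The probe set is marked as one that can match several transcripts of the family, and the gene's second probe set gave 2.17.

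Ptgs2, which encodes cyclooxygenase 2, the inducible enzyme of prostaglandin synthesis, had the largest difference of the 17, 2.08 ± 0.26 (adjusted p = 0.0115). It read 8.91 and 8.72 in p50-/-IL10-/- cells with LPS and IL-10, against 7.29 and 6.59 with LPS, and was called higher with IL-10. It read 7.70 and 7.50 in IL10-/- cells with LPS and IL-10, against 7.88 and 7.72 with LPS, an effect of -0.20 that did not pass the test. A second probe set gave a difference of 1.00 ± 0.33 (adjusted p = 0.349 when every probe set was tested). Smad6, an inhibitor of bone morphogenetic protein signalling, averaged 8.99 in p50-/-IL10-/- cells with LPS and IL-10, against 8.03 with LPS, and 8.79 in IL10-/- cells with LPS and IL-10, against 8.67 with LPS. Its difference of 0.84 ± 0.13 was also just inside the threshold (adjusted p = 0.0484).

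**Figure D2:**
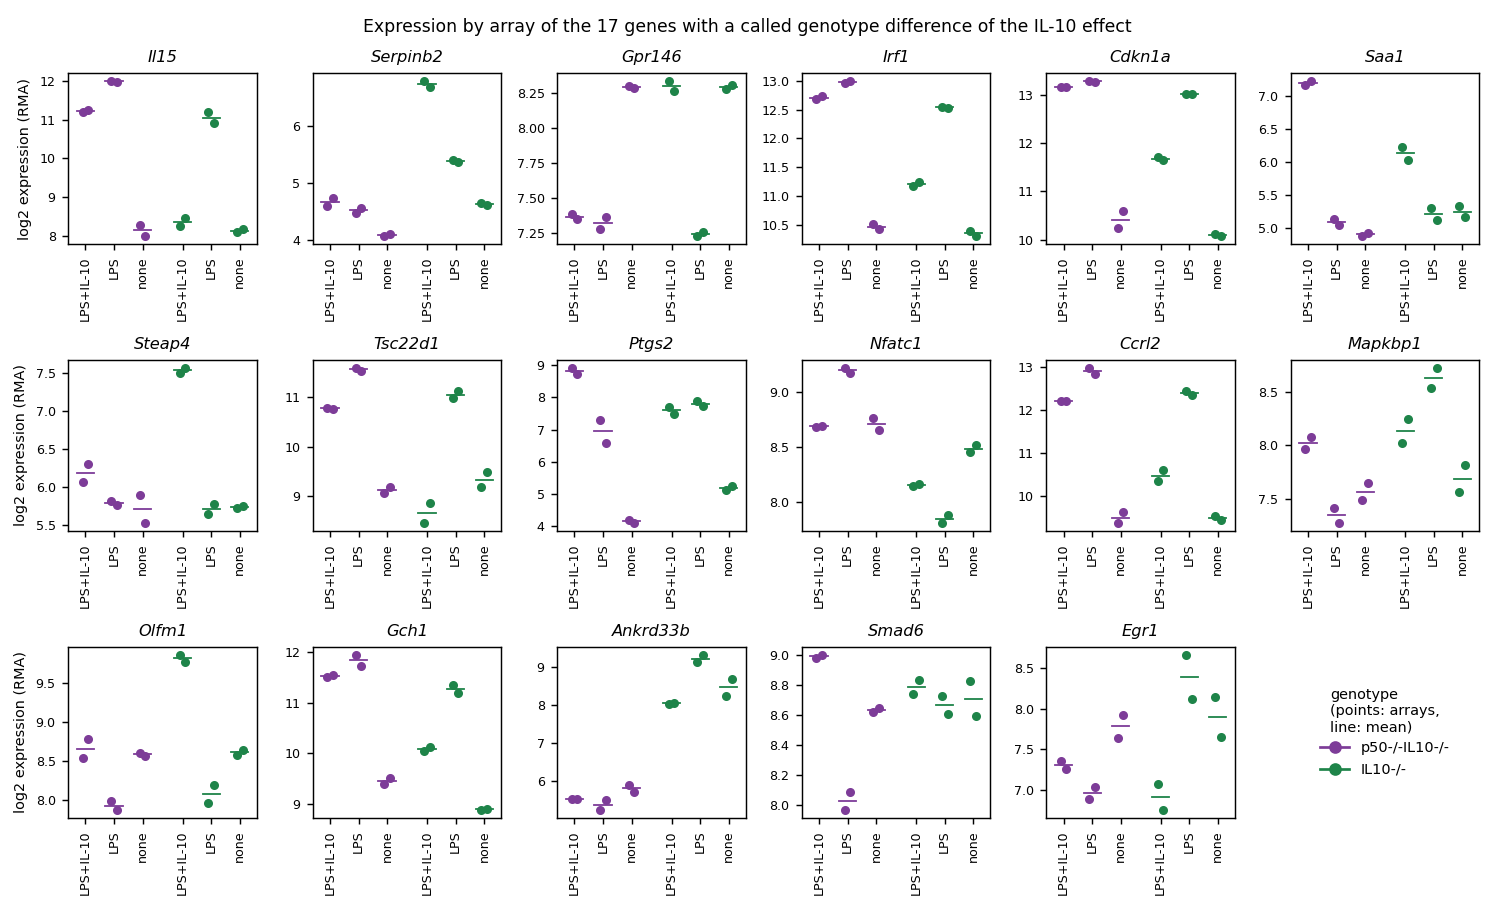
Log2 expression on each of the 12 arrays for the 17 genes with a called difference, in p50-/-IL10-/- cells (purple) and IL10-/- cells (green). Points are arrays and lines are the means of 2 arrays, with unstimulated cells as the third group of each genotype. Il15 stays high with IL-10 in p50-/-IL10-/- cells and comes near the unstimulated level in IL10-/- cells, and Serpinb2 is raised by IL-10 in IL10-/- cells.

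In 3 genes IL-10 was called to act in opposite directions in the 2 genotypes. Nfatc1 encodes a calcineurin-regulated transcription factor known for its part in osteoclast formation. It read 8.69 and 8.70 in p50-/-IL10-/- cells with LPS and IL-10, against 9.22 and 9.18 with LPS, and 8.15 and 8.16 in IL10-/- cells with LPS and IL-10, against 7.81 and 7.88 with LPS. The difference was -0.82 ± 0.10 (adjusted p = 0.0122), and a second probe set gave -0.71. Mapkbp1, which encodes a scaffold protein of the JNK pathway, ran the other way, with an effect of 0.67 without p50 and -0.50 in IL10-/- cells and a difference of 1.17 ± 0.17 (adjusted p = 0.0316), with 1.21 from a second probe set. Snx20, a sorting nexin, had an effect of 0.34 in p50-/-IL10-/- cells and -0.39 in IL10-/- cells, but its difference, 0.73, missed the threshold (adjusted p = 0.0534).

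The 4 remaining genes were raised by IL-10 in IL10-/- cells and less so, or not measurably, without p50. Serpinb2 encodes plasminogen activator inhibitor 2. It read 4.60 and 4.74 in p50-/-IL10-/- cells with LPS and IL-10, against 4.47 and 4.57 with LPS. In IL10-/- cells it read 6.80 and 6.70 with LPS and IL-10, against 5.42 and 5.37 with LPS. All but the IL10-/- arrays with LPS and IL-10 lay below the lower quartile of all probe sets, so the sizes of the rise and of the difference are uncertain. The difference was -1.20 ± 0.11 (adjusted p = 0.00295).

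Gpr146 encodes a G-protein coupled receptor. It read 7.39 and 7.35 in p50-/-IL10-/- cells with LPS and IL-10, against 7.28 and 7.36 with LPS, groups that overlapped. It read 8.34 and 8.27 in IL10-/- cells with LPS and IL-10, against 7.23 and 7.26 with LPS, close to unstimulated IL10-/- cells, 8.28 and 8.31. The difference was -1.01 ± 0.10 (adjusted p = 0.00295), and a dimmer second probe set gave -0.62 (adjusted p = 0.326 when every probe set was tested). Steap4, a metalloreductase of the plasma membrane and endosomes, averaged 6.18 in p50-/-IL10-/- cells with LPS and IL-10, against 5.78 with LPS, and 7.53 in IL10-/- cells with LPS and IL-10, against 5.71 with LPS. Its difference was -1.42 ± 0.17 (adjusted p = 0.00984). A dimmer second Steap4 probe set gave -1.83 ± 0.40 (adjusted p = 0.168 when every probe set was tested). On that probe set the effect was 2.33 in p50-/-IL10-/- cells and 4.16 in IL10-/- cells, so the rise without p50 was larger there. Olfm1, a secreted glycoprotein, was called higher with IL-10 in both genotypes, 1.66-fold in p50-/-IL10-/- cells and 3.32-fold in IL10-/- cells, and its difference was -1.003 ± 0.148 (adjusted p = 0.0326), with -0.69 and -1.77 from other probe sets in the dim range.

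**Figure D3:**
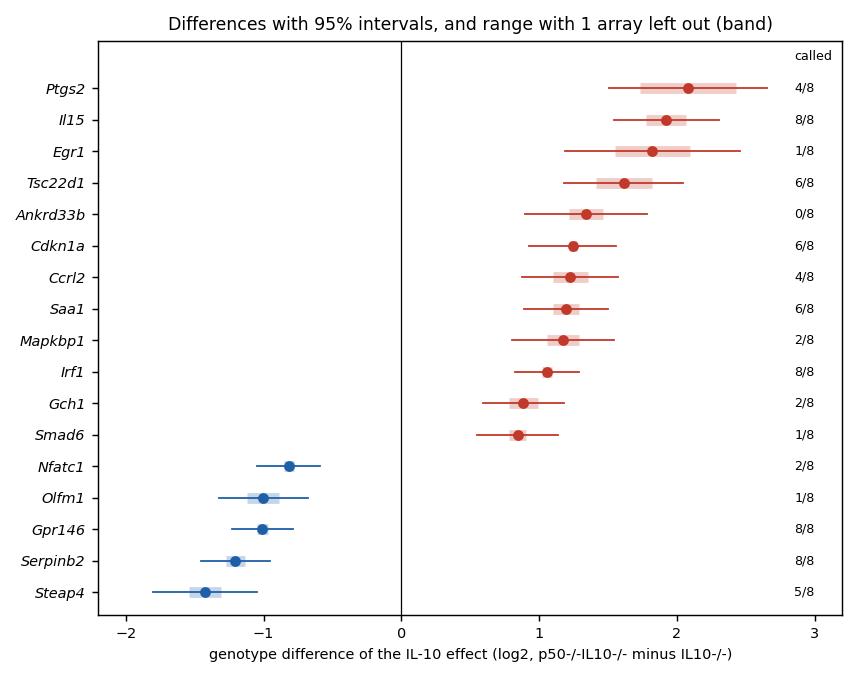
Genotype difference of the IL-10 effect (log2, p50-/-IL10-/- minus IL10-/-) for the 17 genes, with the 95% interval of each (line) and its range when 1 of the 8 LPS-treated arrays was left out in turn (band). The numbers at the right count the 8 such fits in which the gene was still called. Il15, Irf1, Gpr146 and Serpinb2 were called in 8 of 8.

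Leaving out each of the 8 arrays in turn kept the direction of all 17 genes, while the number called ranged from 4 to 43. Il15, Serpinb2, Gpr146 and Irf1 were called in every such fit. Cdkn1a, Saa1 and Tsc22d1 were lost in 2 fits, both without an array of p50-/-IL10-/- cells with LPS and IL-10, where 4 and 5 genes were called in all. Ankrd33b was lost in all 8, Egr1, Smad6 and Olfm1 in 7, Mapkbp1, Nfatc1 and Gch1 in 6, Ptgs2 and Ccrl2 in 4 and Steap4 in 3. Just outside the threshold lay Rab3il1 (adjusted p = 0.0511), Hmgn3, Trim25, Mx2 and Snx20 (each 0.0534).

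Promoter sequences can be read against the elements that STAT3 and NF-kB proteins bind. They are shown for the 3 genes of smallest p that had a window and a match to the STAT element given below. Such a match was thus a condition for being shown, and Cdkn1a, the next gene by p, had none. RefSeq windows of GRCm38.p6, 250 bases before to 50 after each start, were at hand for 14 of the 17 genes, and Il15, Nfatc1 and Egr1 had none. They were searched on both strands for 3 short patterns, the STAT element TTCNNNGAA, an interferon-response pattern of GAAA, any 2 bases and GAAA, and a kB pattern of GGG, any 5 bases and CC. Capitals mark matches to the STAT or kB patterns in the first window of each gene that holds a STAT match.
Serpinb2, chr1:107511173-107511472, plus strand: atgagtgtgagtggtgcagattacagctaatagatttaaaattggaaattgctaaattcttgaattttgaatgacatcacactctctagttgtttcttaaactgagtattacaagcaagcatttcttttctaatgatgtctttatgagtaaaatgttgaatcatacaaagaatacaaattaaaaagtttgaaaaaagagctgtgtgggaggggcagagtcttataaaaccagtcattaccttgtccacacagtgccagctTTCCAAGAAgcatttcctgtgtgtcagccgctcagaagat
Gpr146, chr5:139380389-139380688, plus strand: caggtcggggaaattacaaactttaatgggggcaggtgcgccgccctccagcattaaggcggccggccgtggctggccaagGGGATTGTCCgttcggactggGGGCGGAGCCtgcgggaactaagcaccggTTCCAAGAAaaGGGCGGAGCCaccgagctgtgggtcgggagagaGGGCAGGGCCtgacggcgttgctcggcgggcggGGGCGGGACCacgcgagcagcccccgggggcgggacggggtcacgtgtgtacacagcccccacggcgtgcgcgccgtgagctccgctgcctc
Irf1, chr11:53769764-53770063, plus strand: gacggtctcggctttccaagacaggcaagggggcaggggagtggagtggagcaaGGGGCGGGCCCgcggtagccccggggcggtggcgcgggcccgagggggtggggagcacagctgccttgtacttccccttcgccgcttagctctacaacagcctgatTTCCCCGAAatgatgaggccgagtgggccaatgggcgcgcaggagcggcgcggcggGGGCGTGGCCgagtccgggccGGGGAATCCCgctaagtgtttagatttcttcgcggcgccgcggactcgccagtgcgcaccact
The STAT match starts at 10 bases after the start in Serpinb2, and at 119 bases before it in Gpr146 and 90 in Irf1. The Serpinb2 window has no kB match, whereas the Gpr146 and Irf1 windows hold several, some of which overlap each other. A STAT match was found for 5 of the 14 genes (Serpinb2, Gpr146, Irf1, Steap4 and Tsc22d1), against 9.55% of all 27025 genes with a window. A kB match was found for 12 of the 14, against 53.5% of those 27025 genes. The interferon-response pattern was found for 0 of the 14, against 4.0% of them. The 27025 were not limited to the 12393 genes tested on the arrays, so enrichment over the tested genes was not tested. Genes with several windows had more chances of a match, and a match describes these letters only.

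Sorting all genes by their call in each genotype put 143 genes lower with IL-10 in both and 189 higher in both. A further 205 were called lower in IL10-/- cells without being called in p50-/-IL10-/- cells, and 212 the other way round. Likewise 225 were called higher in IL10-/- cells alone by this count and 267 in p50-/-IL10-/- cells. These classes are descriptions, since most of their members did not pass the test of the difference. It called 5 of the 205 (Irf1, Cdkn1a, Gch1, Ankrd33b and Egr1), 0 of the 212, 3 of the 225 and 2 of the 267. At an unadjusted p under 0.05 there were 128 of the 205, 121 of the 212, 116 of the 225 and 135 of the 267. The class and the difference share arrays, so the members were already picked partly for such a difference. The effect had the same sign in both genotypes for 178 of the 205 and 173 of the 212.

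Among genes called higher in p50-/-IL10-/- cells and not in IL10-/- cells were Cebpd, a transcription factor of the C/EBP family, and Slc11a2, an iron transporter. Cebpd read 10.22 and 10.42 in p50-/-IL10-/- cells with LPS and IL-10, against 9.55 and 9.25 with LPS, and 11.46 and 11.64 in IL10-/- cells with LPS and IL-10, against 11.53 and 11.55 with LPS. Its difference was 0.91 ± 0.17 (adjusted p = 0.102), and a dimmer second probe set gave 0.25. Slc11a2 had an effect of 0.89 in p50-/-IL10-/- cells and 0.04 in IL10-/- cells and a difference of 0.85 (adjusted p = 0.102), with 0.42 and 0.74 from other probe sets. Prdm1, which encodes the repressor Blimp-1, had an effect of 0.57 in p50-/-IL10-/- cells and -0.38 in IL10-/- cells and a difference of 0.95 (adjusted p = 0.0692).

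Among those called lower in p50-/-IL10-/- cells and not in IL10-/- cells, Hmgn3, a nucleosome-binding protein, came closest to the threshold. It read 7.12 and 7.24 in p50-/-IL10-/- cells with LPS and IL-10, against 8.72 and 8.47 with LPS, and 7.02 and 6.78 in IL10-/- cells with LPS and IL-10, against 7.28 and 7.12 with LPS. Its difference was -1.11 ± 0.18. Cd164, a sialomucin, and Vsir, an inhibitory receptor of the B7 family, had differences of -0.84 and -0.77 (adjusted p = 0.102 and 0.13), while other probe sets gave 0.13 for Cd164, in the dim range, and -0.43 for Vsir.

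Genes called the same way in both genotypes had a 95% interval of the difference inside 1.5-fold either way in 74 of the 143 lower genes (51.7%) and 121 of the 189 higher genes (64.0%), against 9052 (73.0%) of all genes. Il4ra, the receptor chain for IL-4 and IL-13, read 10.51 and 10.73 in p50-/-IL10-/- cells with LPS and IL-10, against 8.06 and 8.46 with LPS, and 11.39 and 11.21 in IL10-/- cells with LPS and IL-10, against 8.97 and 8.84 with LPS. The effects, 2.36 in p50-/-IL10-/- cells and 2.40 in IL10-/- cells, differed by -0.04 ± 0.19. Pla2g4a, the phospholipase that releases arachidonic acid, had an effect of 1.78 in p50-/-IL10-/- cells and 1.66 in IL10-/- cells and a difference of 0.12. On the lower side, Mef2c, a transcription factor, had an effect of -1.15 in p50-/-IL10-/- cells and -1.13 in IL10-/- cells, and Mmd, a membrane protein, had -1.50 in p50-/-IL10-/- cells and -1.69 in IL10-/- cells. Neither difference passed the test (adjusted p = 0.977 and 0.662), though 1 of the other Mef2c probe sets gave -0.62.

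Each genotype was also read on genes chosen in the other, so that the choice did not use its own effect. The calls of both genotypes still shared the same estimate of the spread of each gene. Genes called lower in IL10-/- cells had a median effect of -0.42 in p50-/-IL10-/- cells, against -0.75 in IL10-/- cells where they were chosen. Genes called lower in p50-/-IL10-/- cells had a median of -0.57 in those cells, where they were chosen, and of -0.35 in IL10-/- cells. Genes called higher in IL10-/- cells had a median of 0.35 in p50-/-IL10-/- cells, against 0.57 in IL10-/- cells. Genes called higher in p50-/-IL10-/- cells had 0.47 in those cells and 0.30 in IL10-/- cells. The median was smaller in whichever genotype the genes had not been chosen in. Choosing by a call favours large effects in the genotype used, so these medians do not measure a genotype difference.

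Of the gene lists, the one furthest from the rest was that of interferon-stimulated antiviral genes. All 35 measured of 47 had a positive difference, with a median of 1.01, against 0.04 over all genes, of which 7078 of 12393 were positive. None of the 35 passed the test, while 17 were higher and 0 lower at an unadjusted p under 0.05, against 6.98% and 4.74% of all genes. IL-10 was called to lower 18 of them in IL10-/- cells and 0 in p50-/-IL10-/- cells, against 2.82% and 2.87% of all genes. In p50-/-IL10-/- cells 3 had a negative effect at an unadjusted p under 0.05, against 1054 of all 12393 genes. The median effects were -0.26 without p50 and -1.31 in IL10-/- cells. Mx2, an antiviral GTPase, read 10.56 and 10.72 in p50-/-IL10-/- cells with LPS and IL-10, against 11.35 and 11.37 with LPS, and 8.30 and 7.41 in IL10-/- cells with LPS and IL-10, against 10.80 and 10.37 with LPS. Its difference was 2.01 ± 0.33 (adjusted p = 0.0534). Trim25, a ubiquitin ligase of RNA sensing, had 0.94 ± 0.15 (adjusted p = 0.0534), and Daxx and Tor3a had 1.70 and 1.30 (adjusted p = 0.102 and 0.133), with 0.87 from a second Tor3a probe set.

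The arrays of these genes were not equally placed. The list averaged 11.30 and 11.48 in p50-/-IL10-/- cells with LPS and IL-10, against 11.84 and 11.65 with LPS, and 9.92 and 8.75 in IL10-/- cells with LPS and IL-10, against 11.29 and 10.59 with LPS. In unstimulated cells it averaged 9.81 and 9.55 in p50-/-IL10-/- cells and 9.16 and 7.98 in IL10-/- cells. The 2 IL10-/- arrays of each group lay 0.71 to 1.18 apart, more than the p50-/-IL10-/- ones did. The median difference was 0.78 without the 3 IL10-/- arrays numbered 2 and 1.32 without those numbered 1, and it was 0.58 without array 2 and 1.71 without array 1 of IL10-/- cells with LPS and IL-10. A group left with 1 array added nothing to the estimate of the spread, so counts of called genes from these fits are not compared here. With the IL10-/- arrays of either number left out, the spread came from the p50-/-IL10-/- arrays alone. Leaving out the arrays by number was added after the spread was seen. The part of this spread in the result was not tested. With the replicate number added to the fit as a block, 15 of the 35 were called higher, and 2 with it as a random block. The labels do not say whether same-numbered arrays were paired.

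Guanylate-binding proteins and immunity-related GTPases, which are interferon-induced and act on vacuoles that hold pathogens, had a median of 0.83, with 9 of 10 measured positive, 4 higher at an unadjusted p under 0.05 and 0 called. Irgm2 had the largest, 2.06 ± 0.46 (adjusted p = 0.171). The IL10-/- arrays were unequal here too. Array 1 averaged above array 2 by 0.65 with LPS and IL-10, 0.63 with LPS and 0.85 in unstimulated cells. In p50-/-IL10-/- cells these values were -0.10, 0.19 and 0.30. With the replicate number as a block 4 of the 10 were called, and 0 with it as a random block. The part of this spread was not tested. Chemokines had a median of 0.36, with 0 of 21 called and 4 higher and 0 lower at an unadjusted p under 0.05. Cxcl10, which attracts T cells, had 2.02 ± 0.51 and Cxcl2, which attracts neutrophils, 0.76 ± 0.15 (adjusted p = 0.222 and 0.13). For chemokines, IL10-/- array 1 averaged above array 2 by 0.35 with LPS and IL-10, 0.44 with LPS and 0.34 in unstimulated cells. In p50-/-IL10-/- cells these values were -0.21, 0.22 and 0.06. Tnf had a difference of 0.83 ± 0.16 and Il12b, whose product is a subunit of IL-12 and IL-23, had 1.25 ± 0.30, with an IL-10 effect on Il12b of -3.27 in p50-/-IL10-/- cells and -4.52 in IL10-/- cells, both called. Neither passed the test of the difference on these probe sets (adjusted p = 0.102 and 0.207). A second Il12b probe set, at a similar level, gave 1.78 ± 0.14 and was called when every probe set was tested (adjusted p = 0.00189). Of the list, 5 of 21 inflammatory cytokines were higher and 2 lower at an unadjusted p under 0.05. For this list and the 2 before it, the shares of all genes at that p were 6.98% higher and 4.74% lower.

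**Figure D4:**
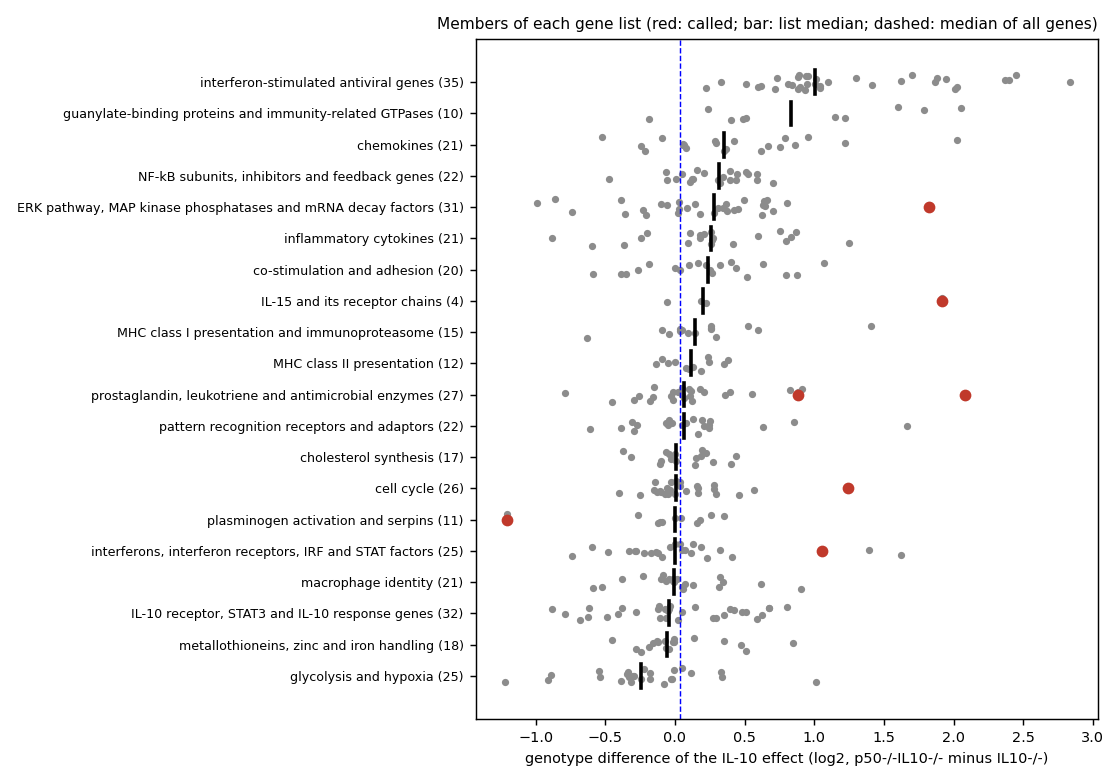
Genotype difference of the IL-10 effect (log2, p50-/-IL10-/- minus IL10-/-) for each member of each gene list (grey points, number measured in brackets), with called genes in red, the list median as a black bar and the median of all genes, 0.04, as a dashed line. Interferon-stimulated genes lie furthest to the right and glycolysis and hypoxia genes furthest to the left.

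NF-kB subunits, inhibitors and feedback genes had a median of 0.32, with 0 called. At an unadjusted p under 0.05, 10 of 22 were higher and 1 lower, against 6.98% and 4.74% of all genes. Traf1, an adaptor induced by NF-kB, had an effect of -0.83 in p50-/-IL10-/- cells and -1.53 in IL10-/- cells and a difference of 0.70 ± 0.17 (adjusted p = 0.213). Nfkb2 and Rela had 0.53 and 0.34. The ERK, phosphatase and mRNA decay list had a median of 0.28, with Egr1 called. In it 12 of 31 were higher and 4 lower at that p, against the same shares of all genes. Within it Jun had -0.99 ± 0.18, whereas Jund and Junb had 0.63 and 0.81. The list of prostaglandin, leukotriene and antimicrobial enzymes had a median of 0.07, against 0.04 over all genes, and held the called Ptgs2 and Gch1. At an unadjusted p under 0.05, 5 of 27 were higher and 2 lower, against 6.98% and 4.74% of all genes. The lowest difference in it was -0.79, for Arg1. Ptges makes prostaglandin E2 from the product of cyclooxygenase. It had an effect of 0.99 in p50-/-IL10-/- cells and 0.16 in IL10-/- cells and a difference of 0.83 (adjusted p = 0.281).

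Genes of the IL-10 receptor, STAT3 and the IL-10 response had differences in both directions, between -0.88 and 0.81, around a median close to that of all genes. Of 32 measured, 15 were called higher in p50-/-IL10-/- cells and 18 in IL10-/- cells, against 3.70% and 3.35% of all genes. The median difference was -0.04, with 0 called. At an unadjusted p under 0.05, 6 were higher and 7 lower, against 6.98% and 4.74% of all genes. Socs3, a STAT3-induced feedback inhibitor, read 12.40 and 12.45 in p50-/-IL10-/- cells with LPS and IL-10, against 11.06 and 11.01 with LPS, and 12.04 and 11.97 in IL10-/- cells with LPS and IL-10, against 11.26 and 11.32 with LPS. Its difference was 0.68 ± 0.12 (adjusted p = 0.0675), but the other probe sets of Socs3, at nearly equal levels, gave 0.19 and 0.15 (adjusted p = 0.798 and 0.851 when every probe set was tested). Il1rn, the IL-1 receptor antagonist, had an effect of 1.06 in p50-/-IL10-/- cells and 1.94 in IL10-/- cells and a difference of -0.88 (adjusted p = 0.235). Arg1 had -0.79 at a level in the dim range.

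Glycolysis and hypoxia genes had the lowest median, -0.24, with 0 called. At an unadjusted p under 0.05, 9 of 25 were lower and 1 higher, against 4.74% and 6.98% of all genes. IL-10 was called to raise 4 of the 25 in p50-/-IL10-/- cells and 13 in IL10-/- cells, against 3.70% and 3.35% of all genes. Pfkfb3, which makes an activator of glycolysis, read 9.33 and 9.34 in p50-/-IL10-/- cells with LPS and IL-10, against 9.19 and 8.92 with LPS, and 10.79 and 10.71 in IL10-/- cells with LPS and IL-10, against 9.38 and 9.12 with LPS. Its difference was -1.22 ± 0.21 (adjusted p = 0.0649). Bnip3, a hypoxia-induced mitophagy receptor, had -0.91 and Egln3, a prolyl hydroxylase, had -0.89 (adjusted p = 0.0997 and 0.207). A second Egln3 probe set, at a similar level, gave -1.72 and was called when every probe set was tested (adjusted p = 0.00297), whereas the dimmer second probe set of Pfkfb3 gave -0.39 (adjusted p = 0.639).

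**Figure D5:**
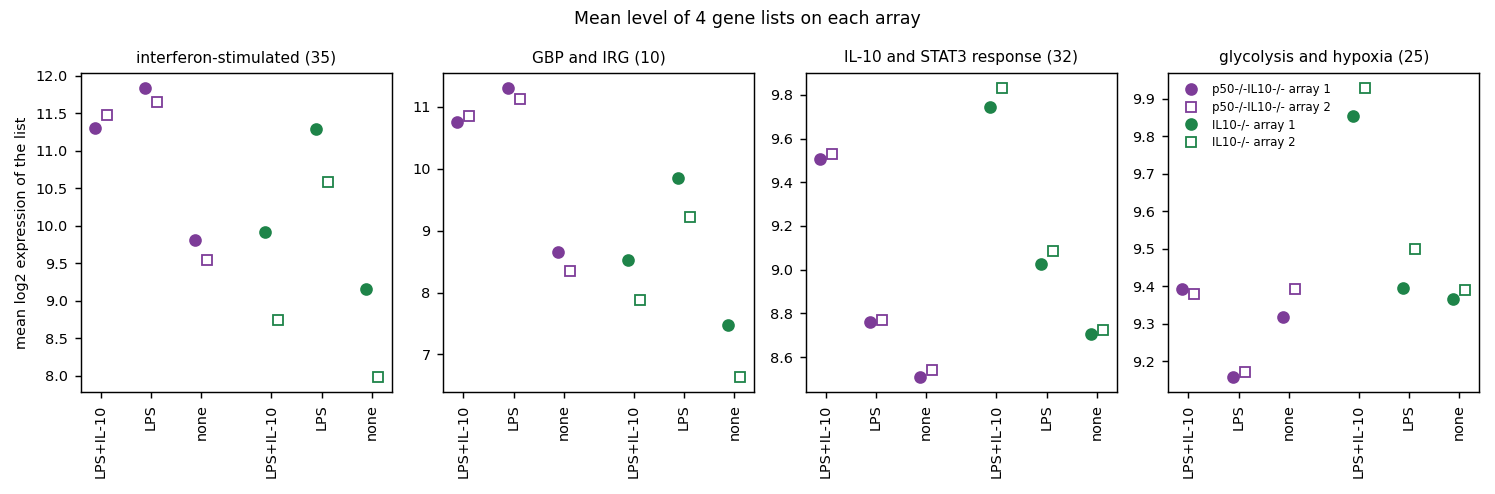
Mean log2 level of 4 gene lists on each array, for p50-/-IL10-/- (purple) and IL10-/- (green) cells with LPS+IL-10, LPS or no stimulus, filled circles for array 1 and open squares for array 2. In the interferon-stimulated list the IL10-/- arrays spread by 0.71 to 1.18, and in the IL-10 and STAT3 response list the pairs lie close together.

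Of the remaining lists, MHC class I genes had a median of 0.14 and MHC class II genes 0.12, each with 0 called. At an unadjusted p under 0.05, 1 of 15 and 1 of 12 were higher, against 6.98% of all genes. Tap1, a peptide transporter, had 1.41 ± 0.47 (adjusted p = 0.316), while 3 dimmer Tap1 probe sets gave -0.06, -0.06 and 0.20. Co-stimulation and adhesion genes had 0.24, with 0 called. At an unadjusted p under 0.05, 5 of 20 were higher and 0 lower, against 6.98% and 4.74% of all genes. IL-10 was called to lower 1 of the 20 in p50-/-IL10-/- cells and 7 in IL10-/- cells, against 2.87% and 2.82% of all genes. Cell cycle genes had a median difference of 0.01 with Cdkn1a called, cholesterol synthesis genes 0.01 and metallothionein, zinc and iron genes -0.05. The macrophage identity list had a median of -0.01, with 10 of 21 positive and 0 called (3 higher at an unadjusted p under 0.05, against 6.98% of all genes). Among markers of other cells, 14 neutrophil markers summed to between 5242 and 6067 linear units on p50-/-IL10-/- arrays, against 8739 to 9940 on IL10-/- arrays. Stromal markers, also 14, summed to between 1022 and 1284 on p50-/-IL10-/- arrays, against 1494 to 1991 on IL10-/- arrays. The median difference of the IL-10 effect was -0.01 for neutrophil and 0.15 for stromal markers. None was called, and at an unadjusted p under 0.05 there were 1 higher and 1 lower neutrophil marker and 0 stromal ones. Mast cell and basophil markers had a median of 0.13, with 3 of 10 higher and 0 lower at that p. Dendritic cell markers had 0.13, with 2 of 10 higher and 0 lower. B cell markers had 0.15, with 10 of 10 positive, 1 higher and 0 lower. T and NK cell markers had 0.09, with 0 of 12 higher or lower. In these lists too, 0 were called. The shares of all genes at that p were 6.98% higher and 4.74% lower. The part of cells with such markers in the results was not tested.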

How the data were processed

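Expression was measured on 12 Affymetrix arrays of bone marrow-derived macrophages, in 6 groups of 2, from 6 µg of total RNA each. The deposited log2 values are RMA summaries made by the authors, per the submitters' processing notes, which also name limma; versions and a genome build are not given in the sources used here. RMA normalizes arrays to each other, so differences are relative to the other genes of an array. Of 22690 probe sets, 64 were controls and 20380 had a single gene symbol in GEO's platform annotation (691 had several and 1555 none). Each of the 12393 genes was read from the probe set of highest mean over the 12 arrays, which for 4956 genes was a choice among several.

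A mean per group was fitted to all 12 arrays with limma 3.58.1 in R 4.3.3, with 6 residual degrees of freedom, and the difference was the contrast of the 4 LPS-treated groups. The median SE was 0.141 for the difference and 0.0998 for the effect in one genotype. With 2 arrays in each group the smallest p of an exact permutation test between 2 groups is 0.333, and no permutation test was used. The number of arrays limits the precision. The fit was also run on simulated data with independent noise of equal spread in all groups. That setting leaves out the shifts shared by many genes of an array, so it does not show how the test fares with them.

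The members and the 26 gene lists were chosen with earlier results of these data known. The text names genes by rule, namely the called ones, up to 8 of smallest p in each one-genotype class, those called in opposite directions, up to 8 bounded ones in each direction, the 4 of smallest p in each list, and Il10. Genes just outside the threshold are named for their adjusted p, and other probe sets of a gene, from a test of every probe set, are given for called genes and, for the rest, where they departed clearly from the one used. Alternatives were the arrays used, median centring, a filter on dim genes, the mean of probe sets, an intensity trend, a replicate block, other thresholds and each array left out. Promoter windows came from RefSeq, GRCm38.p6.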

Additional observations from a re-analysis of the deposited data

Results flagged for a closer look

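Each of the 17 genes is listed because the test of the difference between the genotypes itself, the interaction term, passed the adjusted threshold. Higher without p50 were Ptgs2 (2.08), Il15 (1.92), Egr1 (1.82), Tsc22d1 (1.61), Ankrd33b (1.34), Cdkn1a (1.24), Ccrl2 (1.22), Saa1 (1.20), Mapkbp1 (1.17), Irf1 (1.06), Gch1 (0.88) and Smad6 (0.84), all log2. Lower without p50 were Steap4 (-1.42), Serpinb2 (-1.20), Gpr146 (-1.01), Olfm1 (-1.003) and Nfatc1 (-0.82). Groups of 2 arrays are too small for a test of outlying arrays.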

How the results depend on the processing

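With the 8 LPS-treated arrays alone, 10 genes were called for the difference (7 higher, 3 lower), 416 for IL-10 in p50-/-IL10-/- cells, 219 alike in both genotypes and 110 of these within bounds; the medians read in IL10-/- cells became -0.47 for lowered and 0.57 for raised genes. Median centring gave 0.46 for the last. Averaging probe sets gave 26 calls (11 lower), testing every probe set 29 (13 lower), and an adjusted p under 0.1 gave 33 (22 higher, 11 lower). A filter on dim genes gave 17, an intensity trend 16 and a random block 22.

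Leaving out 1 array at a time gave 4 to 43 calls (2 to 27 higher, 2 to 16 lower), 270 to 1085 for IL-10 in p50-/-IL10-/- cells, 426 to 1082 in IL10-/- cells, 172 to 422 alike and 70 to 232 within bounds. The lowest count of calls, 4, came without array 1 of p50-/-IL10-/- cells with LPS and IL-10, and 5 came without array 2. There were 43 without array 2 of IL10-/- cells with LPS, and 10 without array 1. The median read in p50-/-IL10-/- cells ranged from -0.53 to -0.32 for lowered and 0.29 to 0.49 for raised genes, and in IL10-/- cells from -0.60 to -0.31 and 0.17 to 0.74. A group left with 1 array was assumed to vary like the others.

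The labels do not say whether same-numbered arrays were paired, and the genotypes differed in this. Deviations of same-numbered LPS-treated arrays, without and with IL-10, correlated at -0.49 in p50-/-IL10-/- and 0.59 in IL10-/- cells. In each IL10-/- group array 1 also read higher than array 2 for 34 of the 35 interferon-stimulated antiviral genes. With the replicate number as a block, 74 genes were called (53 higher, 21 lower), among them all 17, and 15 of the 35 interferon-stimulated antiviral genes, against 0 without it (2 with the random block, 24 with the crossed pairing that follows). A crossed pairing in p50-/-IL10-/- cells, chosen after seeing the data, gave 222 (127 higher, 95 lower), with 1673, 1302, 655 and 437 for IL-10 without p50, IL-10 in IL10-/- cells, alike and bounded. Also chosen after seeing the data, leaving out the IL10-/- arrays numbered 2 gave 30 calls (26 higher) and 128 bounded, and leaving out those numbered 1 gave 45 (42 higher, 3 lower), 345 for IL-10 in IL10-/- cells, 203 alike, 67 bounded and a median of 0.72 in p50-/-IL10-/- cells for raised genes. The cause was not tested. With the IL10-/- arrays of either number left out, the spread was estimated from the p50-/-IL10-/- arrays alone, so the IL10-/- spread was not in the test. No called value changed sign in any of these settings.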
